A study of Mus musculus with 6 samples.

Results

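The 10 genes described here encode enzymes of glycolysis from hexokinase to lactate dehydrogenase A: Hk1, Hk2, Gpi1, Pfkl, Pfkp, Aldoa, Pgk1, Eno1, Pkm and Ldha. They were chosen by gene symbol, are 10 of the 39179 genes listed, and were all among the 17021 genes that the authors tested. RNA was sequenced from B16F10.9 cells, a mouse melanoma line of C57BL/6 origin, in 6 libraries: 3 of cells given recombinant mouse interferon-gamma (IFN-gamma) and 3 of cells given no agent. IFN-gamma was kept in the medium for 24 h at a labelled 50 µg/ml, a dose whose unit could be checked nowhere else. Each gene has 1 FPKM value per group (fragments counted per unit of transcript length and of sequencing depth), reduced by the authors from 3 libraries, so no SD, n or value per library stands beside any level, and library depth is unknown. The dishes were seeded in triplicate, and nothing says that they were separate cultures, so the spread behind the authors' test may be technical. A gene is said to have risen or fallen with IFN-gamma only where the authors' q-value was under 0.05.

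Glycolysis splits glucose into pyruvate in the cytosol and gains ATP and NADH on the way. Hexokinase traps glucose in the cell and phosphofructokinase commits it to the pathway. Aldolase yields 3-carbon sugars, and the enzymes after it work on 3-carbon compounds. Lactate dehydrogenase turns pyruvate into lactate and gives back the NAD+ that the pathway needs. Tumour cells, melanoma included, are known for high glucose use and lactate release even in air.

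The treatment and the line were checked first. Irf1, an immediate target of IFN-gamma signalling, stood at 482 FPKM in IFN-gamma cells and at 10.2 FPKM in untreated cells. The melanocyte markers Mitf, Sox10, Pmel, Mlana, Tyr, Tyrp1 and Dct ranged from 105 to 4045 FPKM in IFN-gamma cells and from 78.7 to 2871 FPKM in untreated cells. The 8 markers of leukocytes, endothelium, epithelium and fibroblasts were at or under 0.122 FPKM in IFN-gamma cells and at or under 0.149 FPKM in untreated cells, with Cd3e and Krt5 among those listed at 0 in IFN-gamma cells.

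The enzymes at the entry of glycolysis and those at its end went in opposite directions. Both hexokinase genes rose with IFN-gamma, Hk2 2.92-fold and Hk1 1.47-fold. The 4 genes from phosphoglycerate kinase to lactate dehydrogenase all fell: Ldha was 3.65-fold lower in IFN-gamma cells, Eno1 2.52-fold, Pgk1 1.64-fold and Pkm 1.62-fold. Gpi1, Pfkl, Pfkp and Aldoa, the genes between them, were not called. Thus 2 of 10 rose and 4 of 10 fell, while over all tested genes 23.4% rose and 20.9% fell. The counts were the same at q under 0.01, where 19.5% of tested genes rose and 17.2% fell. With a change of at least 2-fold also required, 1 gene rose (Hk2) and 2 fell (Eno1 and Ldha), against 9.69% and 8.88% of tested genes. The median log2 ratio of IFN-gamma over untreated was -0.38 over the 10 genes and 0.04 over 16499 tested genes with both values above 0.

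The level of a gene bears on these counts. Of 1128 tested genes whose 2 group values averaged at least 100 FPKM, 49.2% fell and 16.8% rose, with a median log2 ratio of -0.40. Gpi1, Aldoa, Pgk1, Eno1, Pkm and Ldha are 6 of these, and 4 of the 6 fell. The median log2 ratio of the 6 was -0.70. Whether the 6 differ from other highly expressed genes was not tested. The log2 ratio of Ldha was above that of 5.15% of the highly expressed genes and the ratio of Eno1 above that of 14.2%. Those of Pgk1 and Pkm were above 36.02% and 36.8%, and those of Gpi1 and Aldoa, which were not called, above 54.5% and 65.9%.

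**Figure D1:**
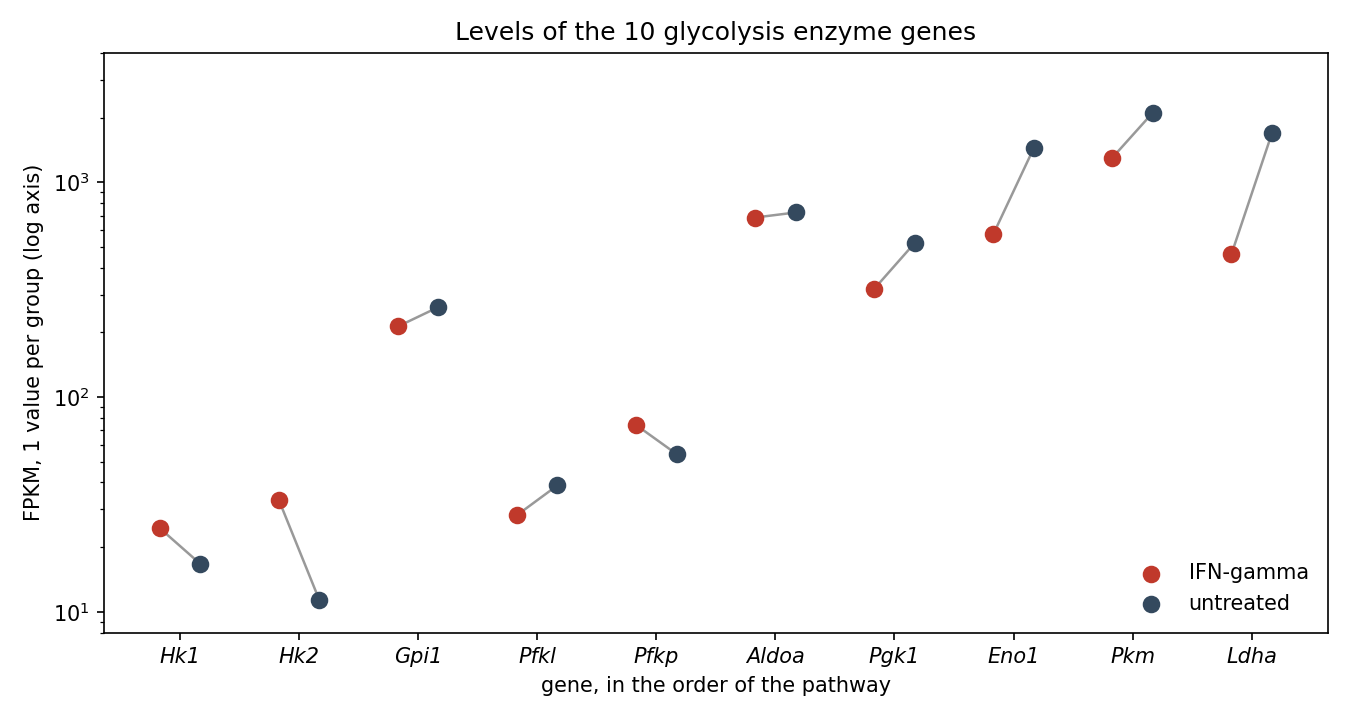
FPKM of the 10 genes on a log axis, in pathway order, with 1 point per group (the authors' value over 3 libraries) and a line joining the points of a gene. Hk1, Hk2 and Pfkp are higher in IFN-gamma cells, and the drop at Ldha, to 462 FPKM in IFN-gamma cells against 1689 FPKM in untreated cells, is the steepest.

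Upstream sequence is shown for the called genes Ldha, Pgk1, Hk2 and Hk1, which moved in both directions and whose RefSeq and GENCODE starts lie at most 35 bases apart. Each window holds the 250 bases before the RefSeq start (GRCm38.p6), read 5′ to 3′ on the strand of the gene. The Ldha window is chr7:46845554-46845803, plus strand, the Pgk1 window chrX:106186850-106187099, plus strand, the Hk2 window chr6:82774455-82774704, minus strand, and the Hk1 window chr10:62379909-62380158, minus strand. Capitals mark ACGTG or GCGTG on either strand (CACGT or CACGC where the match is on the other strand), the core of the response element of hypoxia-inducible factors, which are known activators of glycolytic genes.
Ldha: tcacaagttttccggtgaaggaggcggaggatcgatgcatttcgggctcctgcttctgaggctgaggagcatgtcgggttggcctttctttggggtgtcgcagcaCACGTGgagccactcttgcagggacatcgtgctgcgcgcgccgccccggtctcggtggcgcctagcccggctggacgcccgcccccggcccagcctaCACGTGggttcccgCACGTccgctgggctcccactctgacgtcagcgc
Pgk1: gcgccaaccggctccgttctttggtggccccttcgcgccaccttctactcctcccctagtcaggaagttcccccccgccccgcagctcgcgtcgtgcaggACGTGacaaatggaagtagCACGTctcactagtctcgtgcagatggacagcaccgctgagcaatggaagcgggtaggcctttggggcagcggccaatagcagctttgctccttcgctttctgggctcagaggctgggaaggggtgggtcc
Hk2: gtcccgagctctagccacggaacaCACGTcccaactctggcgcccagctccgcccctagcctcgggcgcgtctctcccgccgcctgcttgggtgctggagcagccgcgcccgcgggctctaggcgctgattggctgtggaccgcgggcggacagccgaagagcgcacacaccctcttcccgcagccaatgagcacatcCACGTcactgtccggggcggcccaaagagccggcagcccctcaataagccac
Hk1: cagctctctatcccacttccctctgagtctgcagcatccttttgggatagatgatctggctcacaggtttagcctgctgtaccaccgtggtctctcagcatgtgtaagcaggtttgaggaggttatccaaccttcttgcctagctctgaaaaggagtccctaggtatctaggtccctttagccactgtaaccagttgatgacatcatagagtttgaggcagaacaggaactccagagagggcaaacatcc
The Ldha window held the core at 3 places, whose outermost bases lay 145, 48 and 34 bases before the start. The places at 145 and 48 are CACGTG, an E-box of the kind Myc and Max bind, which contains ACGTG on both strands. The window of Pgk1, which fell, held 2 cores and that of Hk2, which rose, held 2 as well, while the Hk1 window shown held none. RefSeq gives 2 windows each for Hk1, Ldha and Pkm and 3 each for Aldoa and Eno1. Only the window nearest the GENCODE start was searched for each gene, so the counts do not cover the other starts. Over all 10 genes 6 windows held ACGTG or GCGTG, against 38.6% of all 32851 RefSeq windows and 53.9% of the 13158 windows of tested genes, so the share was near that of tested genes. The GC box GGGCGG was also found in 6 of 10 (32.7% of all windows, 55.03% of those of tested genes), and CACGTG in 1 of 10 (6.02% and 8.06%). TTCNNNGAA, the letters of the gamma-activated site bound by STAT dimers, and TATAAA were found in 0 of 10. All windows held them in 7.02% and 12.4%, and windows of tested genes in 5.96% and 6.71%. All 6 motifs were searched on both strands. For Eno1 and Pkm the RefSeq start used lay 244 and 208 bases from the GENCODE start.

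Hexokinase phosphorylates glucose. Hk2, the inducible form typical of tumours and insulin-sensitive tissue, had 33.1 FPKM in IFN-gamma cells and 11.3 FPKM in untreated cells, a log2 ratio of 1.55 (q = 0.000187 in the authors' deposited table). Hk1, the form found in most tissues, had 24.5 FPKM in IFN-gamma cells and 16.7 FPKM in untreated cells, a log2 ratio of 0.55 (q = 0.00146 in the authors' deposited table). The order of the pair differed between groups. Hk2 supplied 57.4% of the summed hexokinase FPKM in IFN-gamma cells and 40.3% in untreated cells, and Hk1 42.5% and 59.4%. The hexokinases were the lowest-expressed step of the pathway in both groups, at a summed 57.7 FPKM in IFN-gamma cells and 28.1 FPKM in untreated cells. Hk3 and Hkdc1, minor forms, were not tested and stood at or under 0.0383 FPKM in IFN-gamma cells and 0.0439 FPKM in untreated cells. Hk1 shares its listed locus with an antisense gene, 2210417K05Rik, at 1.09 FPKM in IFN-gamma cells and 1.02 FPKM in untreated cells. The kit does not mark strand, so reads of that pair cannot be told apart.

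Between hexokinase and the 3-carbon sugars, 4 genes had no call. Gpi1, which turns glucose 6-phosphate into fructose 6-phosphate, had 213 FPKM in IFN-gamma cells and 262 FPKM in untreated cells. Aldoa, which splits fructose 1,6-bisphosphate, had 685 FPKM in IFN-gamma cells and 723 FPKM in untreated cells, a log2 ratio of -0.08. Pfkl and Pfkp, subunits of phosphofructokinase, stood on opposite sides. Pfkl had 28.2 FPKM in IFN-gamma cells and 38.8 FPKM in untreated cells, and Pfkp had 74.1 FPKM in IFN-gamma cells and 54.3 FPKM in untreated cells. The q-values of Gpi1, Pfkl, Pfkp and Aldoa were 0.0590, 0.0698, 0.102 and 0.703 in the authors' deposited table. Those of Gpi1 and Pfkl lie just outside the threshold, and a missed threshold does not show that the levels were alike. With the authors' p-values adjusted again (Benjamini-Hochberg) over the 12800 tested genes of at least 1 FPKM in a group, the adjusted p of Gpi1 was 0.0496 so that 5 of the 10 genes would count as lower. Over the 9792 genes of at least 5 FPKM it was 0.0463. These adjustments called 28.4% of genes higher and 25.8% lower at 1 FPKM, and 29.7% higher and 28.8% lower at 5 FPKM. Pfkl stayed without a call in both (0.0589 and 0.0550).

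The 3 phosphofructokinase genes together stood at 122 FPKM in IFN-gamma cells and 112 FPKM in untreated cells. Pfkp made up 60.8% of that sum in IFN-gamma cells and 48.6% in untreated cells, and Pfkl 23.1% and 34.7%. Pfkm, the muscle form, was not called at 19.6 FPKM in IFN-gamma cells and 18.7 FPKM in untreated cells. The differences in these shares have no test, since no value per library was used. Pfkp shares its listed locus with Pitrm1, a mitochondrial peptidase gene, which went the other way (23.0 FPKM in IFN-gamma cells and 32.1 FPKM in untreated cells). How fragments were divided between the pair was not tested.

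**Figure D2:**
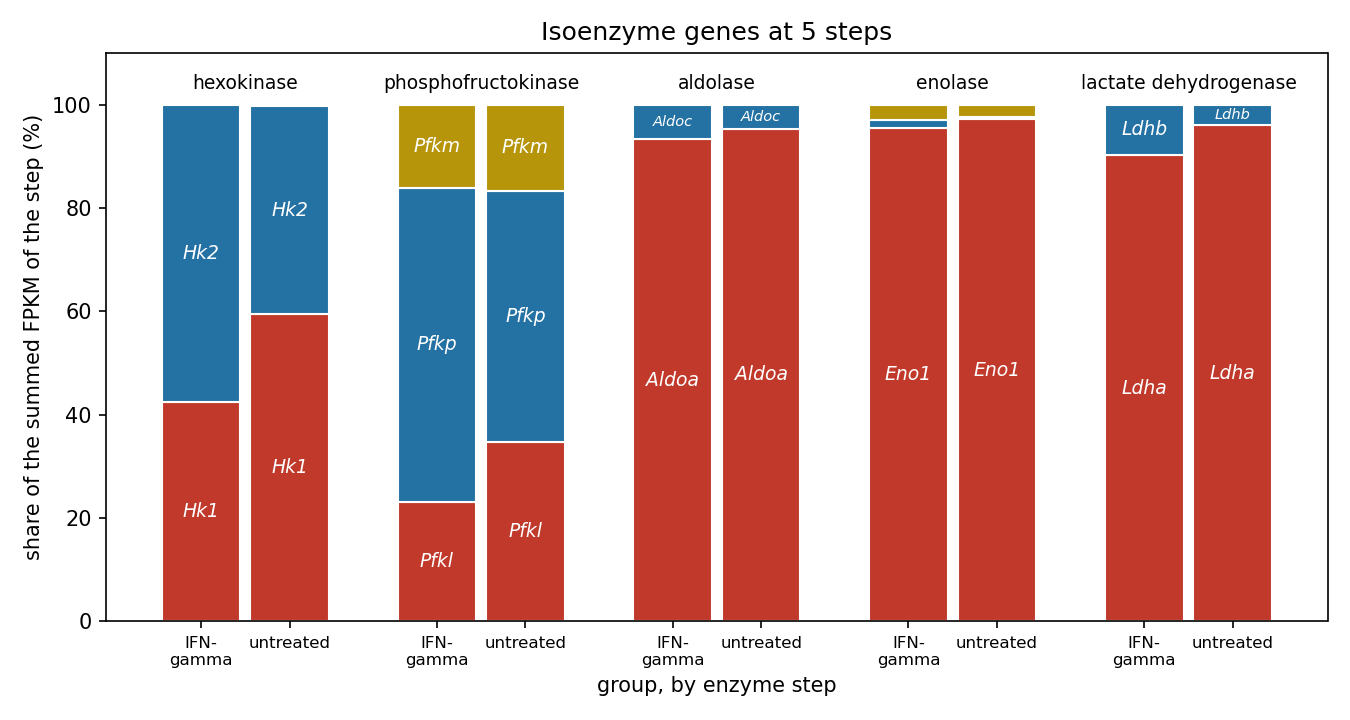
Share of each isoenzyme gene (of at least 1 FPKM in a group) in the summed FPKM of its step, with IFN-gamma left of untreated. Hk2 and Pfkp hold larger shares in IFN-gamma cells, and Ldha holds 90.2% there against 96.1% in untreated cells; the thin bands of enolase are Eno2 (blue) and Eno3 (yellow).

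Eno1, Pgk1 and Pkm belong to the part of the pathway that pays back ATP. Pgk1, the kinase of the first ATP-forming step, had 319 FPKM in IFN-gamma cells and 522 FPKM in untreated cells (log2 ratio -0.71). Eno1, the main enolase outside muscle and neurons, had 573 FPKM in IFN-gamma cells and 1442 FPKM in untreated cells (log2 ratio -1.33). Pkm, which yields pyruvate, was the highest of the 10 genes in both groups, at 1302 FPKM in IFN-gamma cells and 2111 FPKM in untreated cells (log2 ratio -0.70). The q-values were 0.000187 for Pgk1 and Eno1 and 0.00101 for Pkm in the authors' deposited table. The M1 and M2 forms of Pkm differ by an alternative exon, and the table of gene values does not tell them apart. Pgk1 lies on the X chromosome (106187100 to 106203699, plus strand, GRCm38), Eno1 on chromosome 4 (150236721 to 150248879, plus strand) and Pkm on chromosome 9 (59656368 to 59679375, plus strand).

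Ldha showed the largest change of the 10 genes. It had 462 FPKM in IFN-gamma cells and 1689 FPKM in untreated cells, a log2 ratio of -1.87 (score -7.03, q = 0.000187 in the authors' deposited table). It was the second highest of the 10 genes in untreated cells and the fourth highest in IFN-gamma cells, where Aldoa and Eno1 stood above it. A lower log2 ratio was found in 3.84% of the tested genes with both values above 0. Ldha lies on chromosome 7 (46841475 to 46855627, plus strand, GRCm38). Ldhb, the subunit typical of heart, also fell, with 49.99 FPKM in IFN-gamma cells and 69.1 FPKM in untreated cells. The ratio of Ldha to Ldhb was 9.24 in IFN-gamma cells and 24.4 in untreated cells, and that of Pkm to Ldha was 2.82 and 1.25.

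The highest and the lowest level of the 10 genes lay closer together with IFN-gamma. The highest exceeded the lowest 53.1-fold in IFN-gamma cells and 186-fold in untreated cells, Pkm being the highest in both, with Hk1 the lowest in IFN-gamma cells and Hk2 in untreated cells. In IFN-gamma cells the order from the top was Pkm, Aldoa, Eno1, Ldha, Pgk1, Gpi1, Pfkp, Hk2, Pfkl and Hk1. In untreated cells it was Pkm, Ldha, Eno1, Aldoa, Pgk1, Gpi1, Pfkp, Pfkl, Hk1 and Hk2. Without a spread, neighbours in these orders cannot be separated. Over all tested genes in bins of level, the median log2 ratio was 0.03 from 19.7 to 34.1 FPKM, where Hk1 and Hk2 lie by their mean. It was -0.34 in the top bin, from 70.3 FPKM upward. Minus the median of its bin of level, the log2 ratio was 1.52 for Hk2, 0.52 for Hk1 and -0.35 for Pkm. Whether the narrower range is particular to the 10 genes was not tested. The 10 genes summed to 3713 FPKM in IFN-gamma cells and 6870.1 FPKM in untreated cells, which is 0.484% and 0.830% of all FPKM listed.

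**Figure D3:**
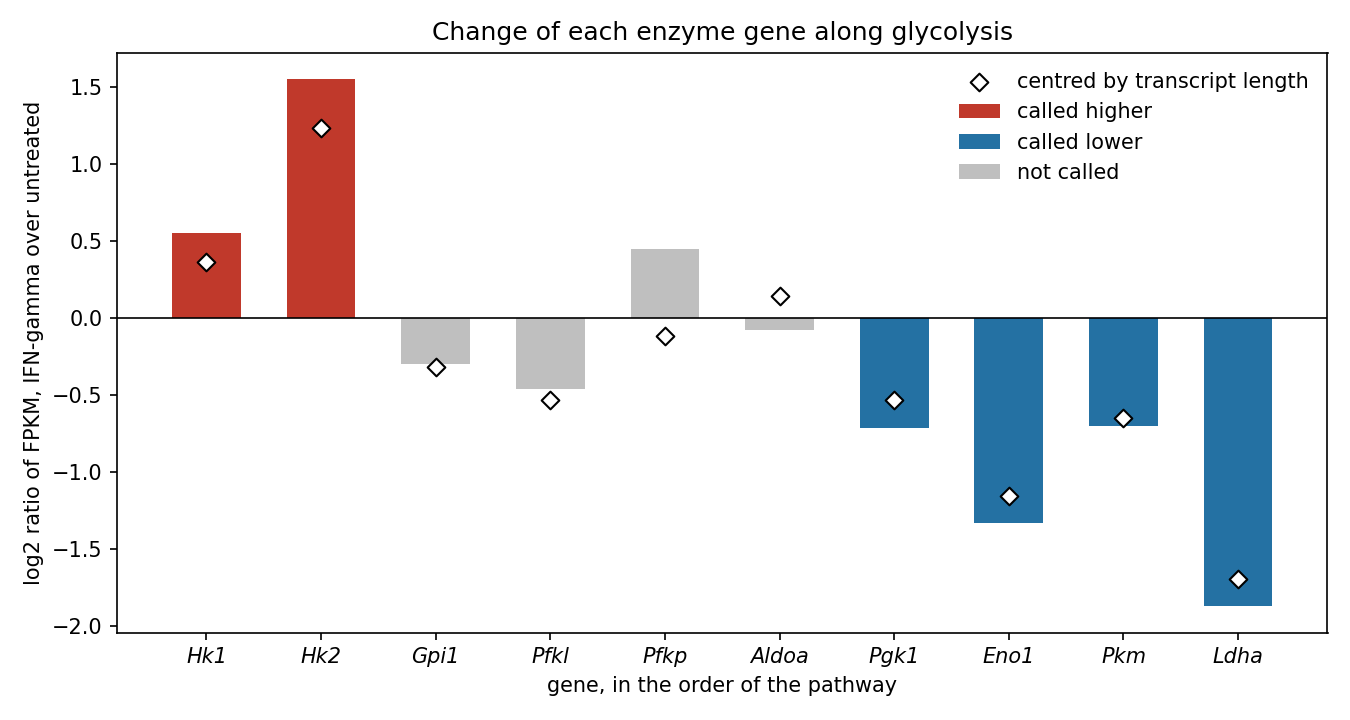
Log2 ratio of FPKM, IFN-gamma over untreated, for each gene in pathway order; bars are coloured by call (authors' q under 0.05) and diamonds give the ratio minus the median of tested genes of like transcript length. Hk1 and Hk2 lie above 0, and Pgk1, Eno1, Pkm and Ldha lie below 0, by both measures; Pfkp and Aldoa change sign.

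Long transcripts had higher ratios than short ones throughout the data. With the tested genes in 10 bins by longest listed transcript, the median log2 ratio was 0.57 in the bin of longest transcripts and -0.41 in the bin of shortest ones. The called members differ in length in the same way: Hk1 and Hk2 have transcripts of 4278 and 5513 nt, and Pgk1, Eno1, Pkm and Ldha of 1825, 2027, 2432 and 1815 nt. Minus the median of genes in the same bin, the log2 ratio was 1.24 for Hk2 and 0.36 for Hk1, and it was -0.53 for Pgk1, -1.16 for Eno1, -0.65 for Pkm and -1.69 for Ldha. All 6 called genes kept their direction under this centring, and the median of the 10 genes was -0.42. Pfkp, with the longest transcript (8681 nt), had -0.12 in place of 0.45, and Aldoa, with the shortest (1549 nt), had 0.14 in place of -0.08.

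**Figure D4:**
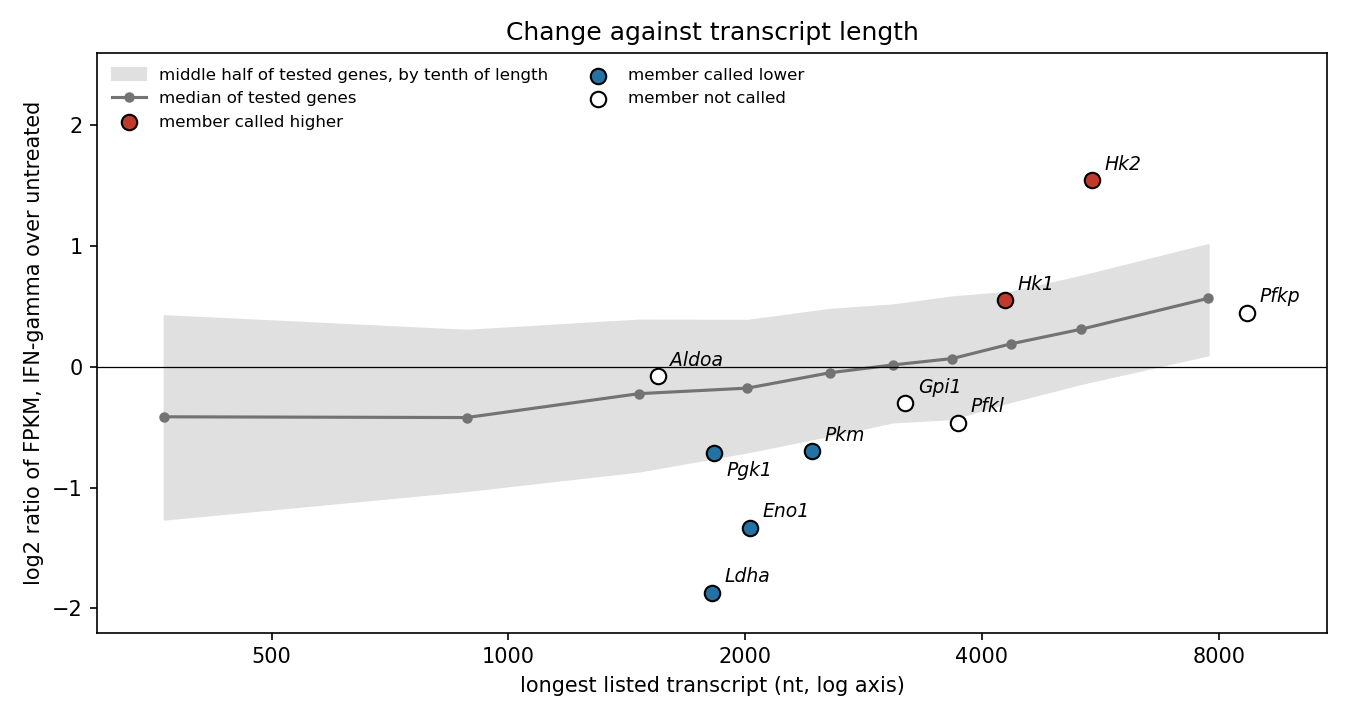
Log2 ratio of FPKM, IFN-gamma over untreated, against longest listed transcript on a log axis for the 10 genes, over the median (line) and interquartile range (grey) of tested genes in 10 bins of length. Hk2 lies above the grey band. Eno1, Ldha, Pkm and Pfkl, which was not called, lie below it, and Pgk1 lies at its lower edge. Pfkp lies past the median length of the last bin.

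The 3 steps of the pathway not among the 10 genes were lower with IFN-gamma too. Tpi1, which interconverts the triose phosphates, fell to 674 FPKM in IFN-gamma cells, against 1255 FPKM in untreated cells. Gapdh, often used as a reference gene, fell to 1379.99 FPKM in IFN-gamma cells, against 2025 FPKM in untreated cells. Pgam1, the phosphoglycerate mutase of most tissues, fell to 75.3 FPKM in IFN-gamma cells, against 99.3 FPKM in untreated cells. With all isoenzymes added up, 9 of the 11 steps from hexokinase to lactate dehydrogenase had a lower sum in IFN-gamma cells and 2, hexokinase and phosphofructokinase, a higher one. Rescaling both groups to the same total put the aldolase sum above that of untreated cells too (log2 ratio 0.064 in place of -0.05). The lactate dehydrogenase sum was lowest relative to untreated cells, at 29.1%, and the enolase sum was at 40.5%. The sums have no test. Tested genes averaging at least 100 FPKM had a median log2 ratio of -0.40. Phosphoglucose isomerase (-0.30) and aldolase (-0.05) were no lower than that. Pgam1 averaged 87.3 FPKM and lies outside that set. The phosphoglycerate mutase sum (-0.36) was near the median of tested genes from 70.3 FPKM upward (-0.34). The remaining lower sums ran from -0.55 (GAPDH) to -1.78 (lactate dehydrogenase).

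Minor isoenzyme genes did not follow the main gene of their step in every case. Pgam2, the muscle mutase, rose (3.07 FPKM in IFN-gamma cells and 1.03 FPKM in untreated cells), as did Aldoc, the brain aldolase (49.3 FPKM in IFN-gamma cells and 35.3 FPKM in untreated cells). Ldhd acts on D-lactate and was not counted in the lactate dehydrogenase sum, though it is on this list. Its level rose as well (15.4 FPKM in IFN-gamma cells and 8.98 FPKM in untreated cells). Eno3, the muscle enolase, fell with Eno1 (17.3 FPKM in IFN-gamma cells and 34.1 FPKM in untreated cells). Eno2, the neuronal enolase, was not called at 10.3 FPKM in IFN-gamma cells and 7.75 FPKM in untreated cells. Of 13 tested genes among the 20 other isoenzymes and steps, 3 rose, 6 fell and 4 were not called, with a median log2 ratio of 0.07. For this list and those below, the shares over all tested genes are 23.4% risen and 20.9% fallen. Among tested genes averaging at least 100 FPKM they are 16.8% risen and 49.2% fallen. Such genes include Tpi1 and Gapdh here, and G6pdx, Pgls, Tkt, Taldo1, Mpc1, Pdhb and Phgdh below. The falls in these lists were not tested against genes of like level. Glycolytic genes have many processed copies in the mouse genome. The 9 copies named as such in the table stood at or under 0.0912 FPKM in IFN-gamma cells and 0.184 FPKM in untreated cells, and how fragments were divided between them and their parents was not tested.

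Carriers bring glucose in and lactate out. Slc2a1, the main glucose carrier of proliferating cells, fell to 20.9 FPKM in IFN-gamma cells, against 38.3 FPKM in untreated cells. Slc16a3, a lactate exporter of glycolytic cells, fell to 1.32 FPKM in IFN-gamma cells, against 5.19 FPKM in untreated cells. Slc2a6, a lysosomal member of the glucose carrier family, rose to 63.9 FPKM in IFN-gamma cells, against 24.96 FPKM in untreated cells. Of 9 tested genes 1 rose, 4 fell and 4 were not called, with a median log2 ratio of -0.27. Among the 5 genes that set fructose 2,6-bisphosphate, the activator of phosphofructokinase, Pfkfb2 rose (7.42 FPKM in IFN-gamma cells and 4.42 FPKM in untreated cells) and Pfkfb1 fell (1.21 FPKM in IFN-gamma cells and 2.29 FPKM in untreated cells). The other 3 were not called, and the median log2 ratio was -0.06.

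Pyruvate enters mitochondria through the Mpc carrier and is oxidised by the pyruvate dehydrogenase complex, which Pdk kinases switch off. Mpc1 fell to 122 FPKM in IFN-gamma cells, against 332 FPKM in untreated cells, and Pdhb, a subunit of the complex, to 71.6 FPKM in IFN-gamma cells, against 186 FPKM in untreated cells. The kinases diverged. Pdk1 fell to 11.01 FPKM in IFN-gamma cells, against 29.8 FPKM in untreated cells, and Pdk3 rose to 85.4 FPKM in IFN-gamma cells, against 31.2 FPKM in untreated cells. Of 13 tested genes of pyruvate entry 4 rose, 6 fell and 3 were not called (median log2 ratio -0.28).

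The pathways that branch off glycolysis showed more falls than rises in the pentose phosphate, serine, gluconeogenic and shuttle lists, and the reverse for glycogen. In the pentose phosphate pathway, G6pdx, its entry enzyme, rose (130 FPKM in IFN-gamma cells and 70.2 FPKM in untreated cells). Tkt (159.6 FPKM in IFN-gamma cells and 367 FPKM in untreated cells) and Taldo1 (84.8 FPKM in IFN-gamma cells and 189 FPKM in untreated cells), which link its sugars back to glycolysis, fell, as did Pgls (79.2 FPKM in IFN-gamma cells and 138 FPKM in untreated cells). Of 8 tested genes 2 rose, 5 fell and 1 was not called (median log2 ratio -0.34). All 5 genes of the serine branch, which starts from 3-phosphoglycerate, fell, with a median log2 ratio of -1.34. Phgdh, its entry enzyme, fell to 70.4 FPKM in IFN-gamma cells, against 311 FPKM in untreated cells. Psph fell to 31.3 FPKM in IFN-gamma cells, against 91.6 FPKM in untreated cells.

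Of 6 tested genes of the gluconeogenic bypass 1 rose, 4 fell and 1 was not called. Pck2, the mitochondrial phosphoenolpyruvate carboxykinase, fell to 7.36 FPKM in IFN-gamma cells, against 21.2 FPKM in untreated cells. G6pc3, a glucose 6-phosphatase of most tissues, rose to 66.7 FPKM in IFN-gamma cells, against 41.6 FPKM in untreated cells. Of 10 tested genes of the glycerol phosphate and malate-aspartate shuttles, which carry electrons of cytosolic NADH into mitochondria, 2 rose, 5 fell and 3 were not called. Gpd1 fell to 6.85 FPKM in IFN-gamma cells, against 14.1 FPKM in untreated cells, and Gpd1l to 14.8 FPKM in IFN-gamma cells, against 27.9 FPKM in untreated cells. Of 10 tested genes of glycogen metabolism 3 rose, 2 fell and 5 were not called (median log2 ratio 0.20). Gbe1, the glycogen branching enzyme, rose (40.2 FPKM in IFN-gamma cells and 30.0 FPKM in untreated cells).

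**Figure D5:**
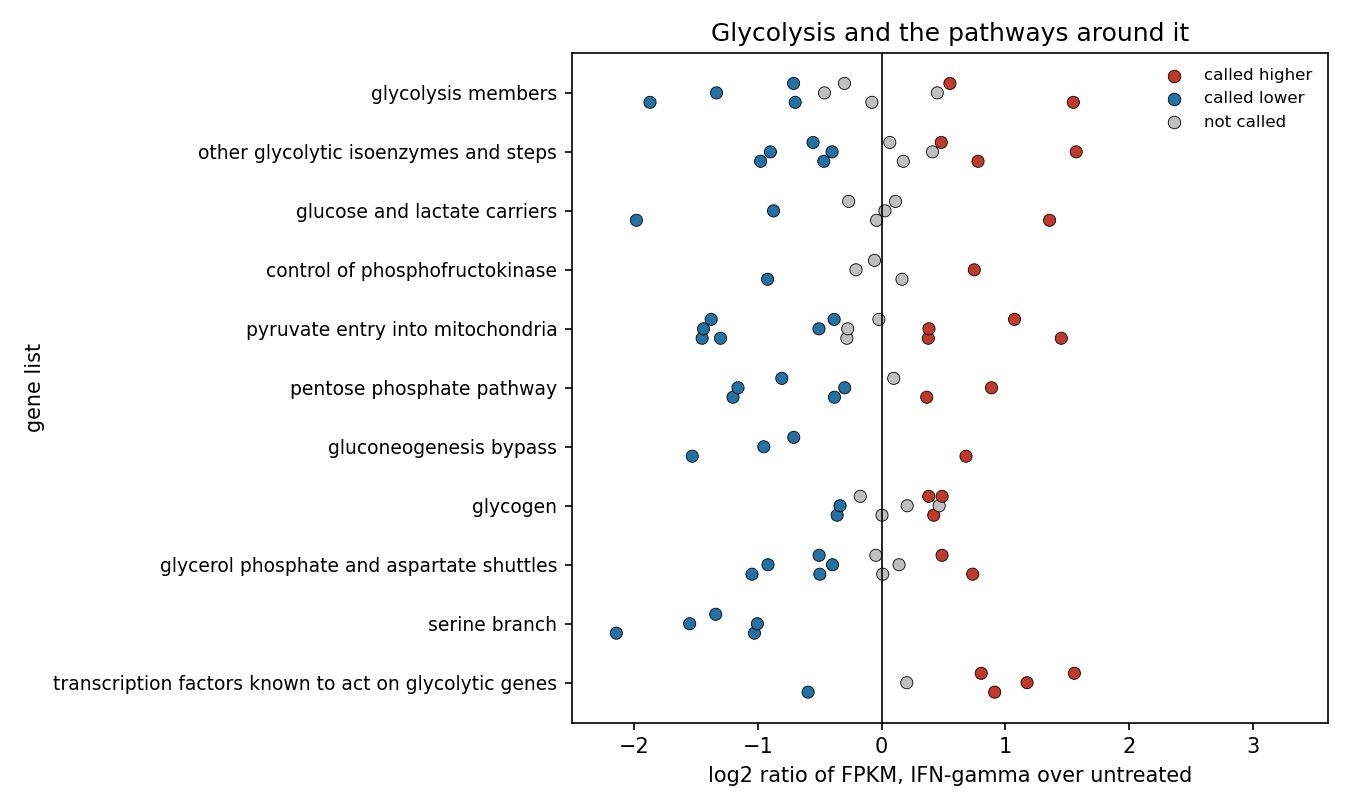
Log2 ratio of FPKM, IFN-gamma over untreated, for each tested gene of at least 1 FPKM in a group and above 0 in IFN-gamma cells, by gene list and coloured by call. The 5 genes of the serine branch all lie below 0, and the 10 glycolysis genes span from -1.87 (Ldha) to 1.55 (Hk2).

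Of 6 tested genes of transcription factors known to act on glycolytic genes 4 rose, against 23.4% of all tested genes. With a change of at least 2-fold also required 2 rose (Mlxip and Epas1), against 9.69%. Both have long transcripts. Minus the median of genes in the same bin of transcript length, their log2 ratios were 0.99 and 0.86, each under 2-fold. All 4 genes that rose stayed above the median of their bin. Mlxip, a glucose-sensing factor, rose to 13.5 FPKM in IFN-gamma cells, against 4.61 FPKM in untreated cells. Epas1, a hypoxia-inducible factor subunit, rose to 3.45 FPKM in IFN-gamma cells, against 1.53 FPKM in untreated cells. The partner genes Arnt (25.7 FPKM in IFN-gamma cells and 14.7 FPKM in untreated cells), which pairs with hypoxia-inducible factors, and Max (62.9 FPKM in IFN-gamma cells and 33.4 FPKM in untreated cells), which pairs with Myc, also rose. Myc itself fell to 12.6 FPKM in IFN-gamma cells, against 18.9 FPKM in untreated cells. Hif1a, whose protein is mainly controlled by its breakdown, was not called at 40.9 FPKM in IFN-gamma cells and 35.5 FPKM in untreated cells. Of the 6 tested genes 1 fell and 1 was not called (median log2 ratio 0.86). Myc and Hif1a were named after their values were seen.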

How the data were processed

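Libraries of B16F10.9 RNA were built, per the labels' protocols, with Illumina's TruSeq V2 kit for RNA. The submitters' processing notes name Cuffdiff, Cufflinks 2.2.1, TopHat2 2.0.11 and the build GRCm38; no source used here gives parameters or an annotation. The deposited gene table holds 1 FPKM value per group per the file headers, beside the q-value, p-value and score of the authors' test. Its first line mentions infected samples, but every row names B16 and IFN, and these names were followed. The authors' q-values equal a Benjamini-Hochberg adjustment of their p-values over the 17021 tested genes to within 5.28e-07, and 5e-05 is the smallest p, held by 4545 genes, so small p-values give no ranking.

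Log2 ratios were computed from the FPKM values without a pseudocount. The planned fits on library values were not made. Transcript lengths and coordinates came from GENCODE M21 (GRCm38), with a length for 98.2% of tested genes, and upstream windows from RefSeq (GRCm38.p6). Centring by length was tested on simulated data. The members, lists and motifs were chosen with earlier results of these data known. Of 124 list entries, 2 (Tigar and Adgre1) were matched by Ensembl ID and the rest by symbol. Named genes were the 10 members, the main gene of each remaining step, isoenzymes of the same steps, and per list at most 4 called genes of at least 1 FPKM with the largest change. Alternatives were other thresholds, pseudocounts, scalings and centrings; those by principal transcript length and by level were chosen after seeing the data. The planned comparison of protein sequences was not made. Some genes of the lists are counted but not reported by name here. Python 3.11.15, pandas 2.3.3, statsmodels 0.14.6 and matplotlib 3.10.9 were used.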

Additional observations from a re-analysis of the deposited data

How the results depend on the processing

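Counts of the 10 members were the same at q under 0.01. With p-values adjusted over genes of at least 1 or 5 FPKM, 5 fell in place of 4, Gpi1 being added, and 2 rose as before. With a change of at least 2-fold, 1 rose and 2 fell. The 6 called members kept their direction under all 9 alternatives of scale, pseudocount, length and level. Among uncalled members, Pfkp turned to -0.12 and -0.20 with 10 and 20 bins of transcript length, but had 0.20 with principal transcripts. Aldoa turned to 0.032 with equal FPKM sums, 0.14 and 0.13 with 10 and 20 length bins, 0.21 with principal transcripts and 0.27 when centred by level, and Gpi1 to 0.044 by level. The median of the 10 members was -0.27 with equal FPKM sums and -0.16 when centred by level, and the aldolase sum turned to 0.064 with equal FPKM sums.

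In the other lists, the 2-fold minimum left 1 rise and 1 fall among isoenzymes and other steps, 0 and 0 in control of phosphofructokinase, 2 rises in pyruvate entry, 0 rises and 2 falls in the pentose phosphate pathway, 0 rises and 2 falls in the gluconeogenic bypass, 0 and 0 in glycogen, 0 rises and 1 fall in the shuttles, and 2 rises and 0 falls among transcription factors. At q under 0.01, 0 falls were left in control of phosphofructokinase, 2 rises in pyruvate entry, 3 falls in the pentose phosphate pathway, 0 falls in glycogen and 1 rise in the shuttles. Adjusted over genes of at least 1 FPKM, 2 falls were left among carriers. The higher thresholds can only remove calls, whereas adjusting over fewer genes can also add them.

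No paired analysis was possible because the deposited values are 1 per group, and leaving out each replicate was not run for the same reason. No error per gene is given, and depth is unknown.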

Other observations

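Some called genes of the sugar pathways were near 0 and were named after their values were seen. Slc2a4, the insulin-responsive glucose carrier, was at 0.0723 FPKM in IFN-gamma cells and 0.905 FPKM in untreated cells. Slc16a7, a monocarboxylate carrier, was at 0.0313 FPKM in IFN-gamma cells and 0.161 FPKM in untreated cells. Pklr, the pyruvate kinase of liver and red blood cells, was at 0.0103 FPKM in IFN-gamma cells and 0.139 FPKM in untreated cells, with a q of 0.0294 but a score of -0.19 in the authors' deposited table. Fbp2, the muscle fructose bisphosphatase, was listed at 0 in IFN-gamma cells and at 0.210 FPKM in untreated cells.

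Among carriers without a call, also named after their values were seen, Bsg, the chaperone of lactate carriers, stood at 348 FPKM in IFN-gamma cells and 357 FPKM in untreated cells. Slc2a3 stood at 10.9 FPKM in IFN-gamma cells and 10.7 FPKM in untreated cells. The subunits of pyruvate dehydrogenase did not move alike: Dld, shared with other dehydrogenase complexes, was not called at 70.5 FPKM in IFN-gamma cells and 71.6 FPKM in untreated cells, while Pdhx fell to 21.4 FPKM in IFN-gamma cells, against 52.6 FPKM in untreated cells.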
